A study of Homo sapiens with 6 samples.

Results

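The 46 genes described here encode the machinery that takes a cell into, through and out of mitosis. They were chosen by name: each is a row of the deposited table of 61806 genes whose symbol equals an entry of a list of mitotic regulators, kinetochore proteins and condensin subunits. The list was made with earlier results of these data known, so it was not tested as a list. All 46 were found, each on 1 row, and all 46 passed the filter on low counts. They were measured by RNA-seq in HCT116 cells, an established line from a human colorectal carcinoma, with 6 libraries in all. The control siRNA had been given to the cells of 3 libraries (si-NC, genotype labelled wildtype) and an siRNA against STRIP2 to those of the other 3 (si-STRIP2, genotype labelled STRIP2 knockdown). STRIP2 is one of the scaffold-like proteins of STRIPAK, an assembly of a phosphatase with kinases. All libraries share the 1 cell line and a poly(A) selected, directional preparation. The sequence and dose of the siRNAs and the time after their delivery are not given in the sources used here. Whether the cells of each library were grown apart is not given either, so the p-values measure the spread between these libraries, which may be technical.

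The knockdown was partial. STRIP2 itself had FPKM values (fragments per kilobase of exon, scaled to the library's total) of 3.19, 3.77 and 3.81 in si-NC and of 2.71, 2.53 and 2.58 in si-STRIP2, where every library lay below every si-NC library and 72.6% of the control level was left. Its log2 fold change, taken here and throughout as si-STRIP2 over si-NC, was -0.46 (SE, the standard error, 0.083, with edgeR adjusted p = 1.62e-05). A gene is said to be called where its adjusted p in edgeR's quasi-likelihood test over all 15687 genes tested was under 0.05.

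Entry into mitosis is driven by CDK1 bound to cyclin A or cyclin B, which CDC25 phosphatases switch on and the kinases PLK1 and Aurora A help to activate. Condensin and topoisomerase II compact the chromosomes, the kinetochore links them to spindle microtubules, and the spindle checkpoint holds back the anaphase-promoting complex until every kinetochore is attached. That complex then has securin and cyclin B destroyed, separase opens the cohesin rings, and the cleavage furrow divides the cell. Most of these genes are transcribed in a wave that peaks in G2 and mitosis, through promoters with a short element called the CHR (cell cycle genes homology region), read by the MuvB complex together with MYBL2 and FOXM1, and through CCAAT boxes, read by NF-Y. In a proliferating line such as HCT116 the level of these transcripts in bulk RNA depends both on how many cells are in G2 and mitosis and on the level per cell, and bulk values cannot tell these apart.

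The promoters of 5 members are shown, of which all but CCNB2 were picked by their results. CCNB2 stands as a gene with the textbook arrangement, and ESPL1 and SPC25 as the members with the highest fold changes. MAD2L1 is a member that was not called, and ANLN is the only member that was called lower. Each run covers the 150 bases before to the 30 bases after the RefSeq start of transcription (GRCh38.p14), in the direction of the gene. Capitals mark 3 kinds of word on either strand. The CHR was searched as TTTGAA, with TTCGAA as a first variant and TTTAAA as another, and the NF-Y box as CCAAT. The E2F site was searched as TTTGGCGC, with TTTCGCGC as a first variant and TTCCCGCC as another. A CHR on the other strand therefore reads TTCAAA, and an inverted NF-Y box reads ATTGG. CCNB2 lies on the plus strand (chr15:59104996-59105175), ESPL1 on the plus strand (chr12:53268149-53268328), SPC25 on the minus strand (chr2:168890401-168890580), MAD2L1 on the minus strand (chr4:120066819-120066998) and ANLN on the plus strand (chr7:36389712-36389891).
CCNB2: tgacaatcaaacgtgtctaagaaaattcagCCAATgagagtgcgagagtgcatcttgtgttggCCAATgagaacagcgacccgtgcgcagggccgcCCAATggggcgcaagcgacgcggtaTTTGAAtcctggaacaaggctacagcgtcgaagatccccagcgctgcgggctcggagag
ESPL1: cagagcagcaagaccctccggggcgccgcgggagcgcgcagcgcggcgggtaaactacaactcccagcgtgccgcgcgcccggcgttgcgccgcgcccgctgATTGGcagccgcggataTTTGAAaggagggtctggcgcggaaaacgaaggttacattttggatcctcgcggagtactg
SPC25: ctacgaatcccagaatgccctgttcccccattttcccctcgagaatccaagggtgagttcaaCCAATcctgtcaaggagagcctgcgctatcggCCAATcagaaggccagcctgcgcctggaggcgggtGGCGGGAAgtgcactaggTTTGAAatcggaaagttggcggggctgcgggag
MAD2L1: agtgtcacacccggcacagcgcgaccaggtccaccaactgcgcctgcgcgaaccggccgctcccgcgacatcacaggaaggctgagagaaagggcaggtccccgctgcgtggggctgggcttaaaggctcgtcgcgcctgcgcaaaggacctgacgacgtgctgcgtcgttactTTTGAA
ANLN: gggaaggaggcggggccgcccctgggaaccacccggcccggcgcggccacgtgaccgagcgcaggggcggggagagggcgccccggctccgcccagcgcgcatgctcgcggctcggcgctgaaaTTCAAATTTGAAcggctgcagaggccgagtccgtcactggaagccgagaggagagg

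In CCNB2 the word TTTGAA stands 29 bases before the start, with CCAAT boxes beginning 54, 87 and 120 bases before it. ESPL1 has TTTGAA 31 bases before the start and a CCAAT box on the other strand 48 bases before it. In SPC25 TTTGAA spans the start itself, with CCAAT boxes 56 and 88 bases and an inverted E2F word 21 bases before it. ANLN has TTTGAA on both strands side by side, 26 and 20 bases before the start, and no CCAAT box in the whole window. In MAD2L1 the word lies after the start, at base 25. RefSeq promoters (250 bases before to 50 after the start) were matched by symbol for 38 of the 46 members. Only a single start was kept for each symbol, so words near other starts of a gene were not searched. A CHR word was found in 32 of the 38 (84.2%), against 25.3% of 27305 promoters of the same length, and a CCAAT box in 27 of them (71.1%), against 35.7%. An E2F word was found in 5 (13.2%), against 4.30%. The 6 members with none of the searched CHR words in this window, AURKB, CCNA2, CDC25B, CDC25C, MYBL2 and SPC24, were each called higher. Other forms of the CHR and other starts were not searched, so these 6 may still hold one. For AURKB, the bases from 150 before to 30 after the start kept (8210196 to 8210375, minus strand) lie inside the deposited gene, which reaches 8210600. The CCNA2 window holds CTTGAA, which differs from TTTGAA only in its first base and was not searched. The 4 matched members with the lowest fold changes, ANLN, CENPA, ECT2 and MAD2L1, each have a searched word. The median log2 fold change was 0.35 for members with a searched CHR word and 0.29 for those without. With TTTGAA alone the order turned, to 0.34 with the word and 0.35 without. These matches describe letters in a window and are no evidence of binding. Promoters of AURKA, BIRC5, BUB3, FOXM1, KNL1, TPX2, TTK and UBE2C were not analysed here.

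The comparison asked how the transcripts of these genes differed between si-STRIP2 and si-NC cells. Total counts lay between 17184963 and 21721218 per library, and mitochondrial genes took 4.88% to 8.88% of them in si-NC and 5.73% to 6.30% in si-STRIP2, which overlap. The epithelial markers EPCAM, KRT8, KRT18, KRT19, CDH1 and CLDN7 were at 24.2 FPKM or more in both groups, VIL1 was at most at 0.0233 FPKM, and the 5 leukocyte markers at most at 0.170 FPKM (group means). Among the fibroblast and endothelial markers COL1A1 reached 2.28 FPKM, KDR 0.343 FPKM and the others less. KDR was called lower (log2 fold change -1.07), from 0.343 to 0.160 FPKM. CDH1 and CLDN7 were called lower (log2 fold changes -0.60 and -0.44), KRT18 (-0.18) and EPCAM (-0.11) too, and KRT19 higher (0.22). Their part in the results was not tested.

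Of the 46 mitotic genes, 38 were called higher in si-STRIP2 cells, 1 was called lower and 7 were not called. The background was wide: 54.8% of all genes tested were called, 27.8% higher and 27.0% lower. The median log2 fold change was 0.34 over the members and 0.014 over all genes tested. The changes were small: 28 members were called higher by at least 1.2-fold (19.4% of all genes tested were) and 4 by at least 1.5-fold (6.35% were), and the largest fold, that of ESPL1, was 1.74. For 40 members every si-STRIP2 library lay above every si-NC library, which held for 30.0% of all genes tested, for 2 members (ANLN and FOXM1) every si-STRIP2 library lay below, as for 28.7% of all, and 4 overlapped. The members together held 0.626%, 0.648% and 0.621% of all counts in the si-NC libraries and 0.758%, 0.767% and 0.762% in the si-STRIP2 libraries. The libraries of a group were close to one another, the median member standing at 0.34, 0.33 and 0.32 (log2 over the si-NC mean) in the 3 si-STRIP2 libraries. Across the 46 members the log2 fold change had a Spearman rho of -0.30 with the si-NC level and 0.11 with exonic length, given as a description. The share of 38 in 46 rests on a test against no change. Against a change of at least 1.2-fold, 22 were called higher, and ANLN was still called lower. In that test 1780 of all 15687 genes tested were called higher and 1943 lower.

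**Figure D1:**
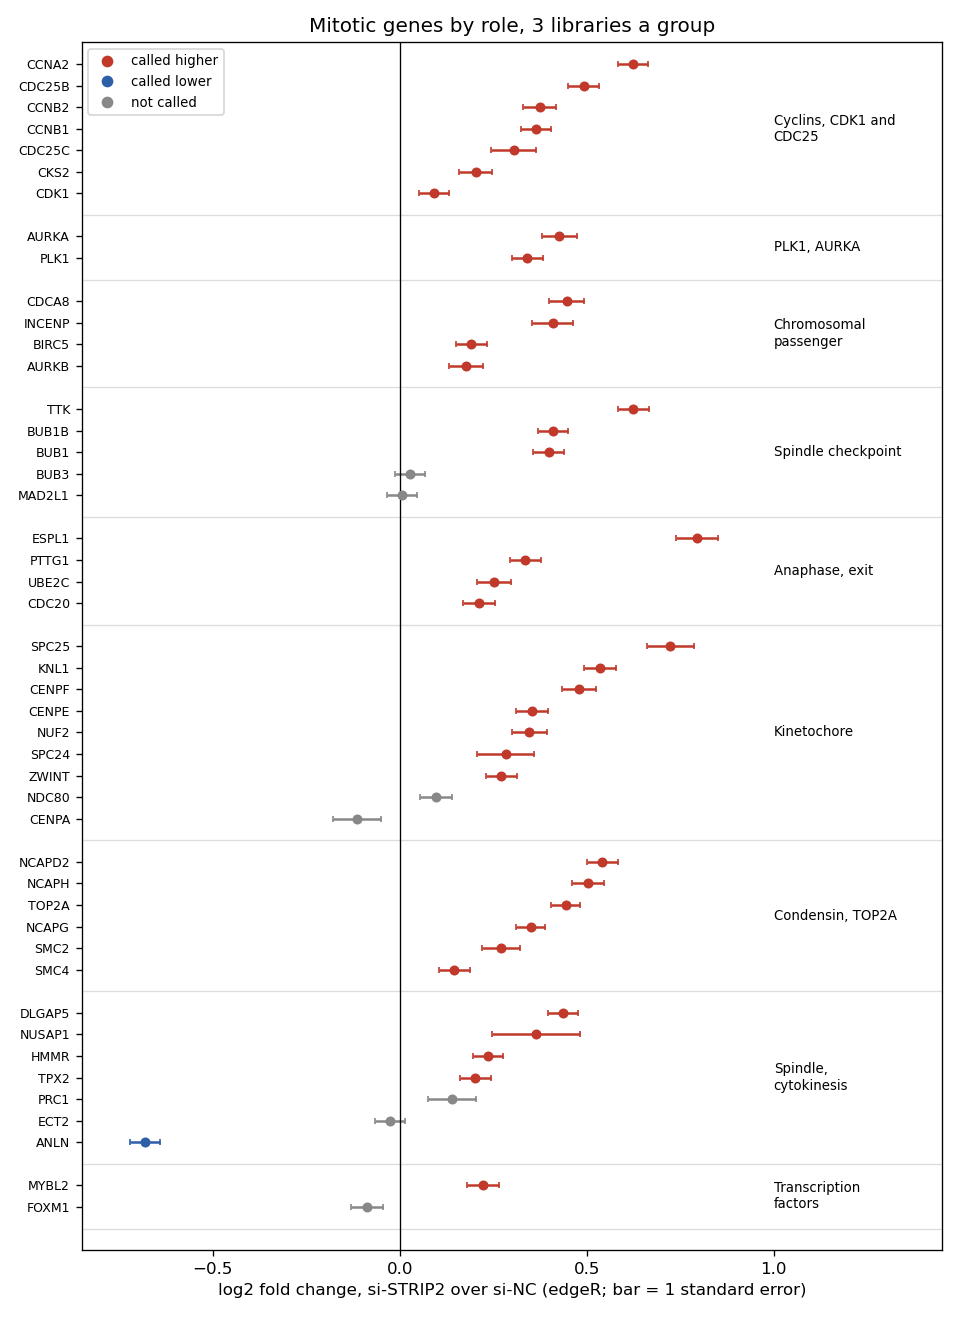
Log2 fold change of each of the 46 genes (horizontal axis, si-STRIP2 over si-NC, edgeR, with bars of 1 standard error, 3 libraries a group), grouped by role. The genes called higher lie between 0.09 and 0.80, CENPA, ECT2 and FOXM1 lie left of 0 without being called, and ANLN stands far to the left at -0.68.

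**Figure D2:**
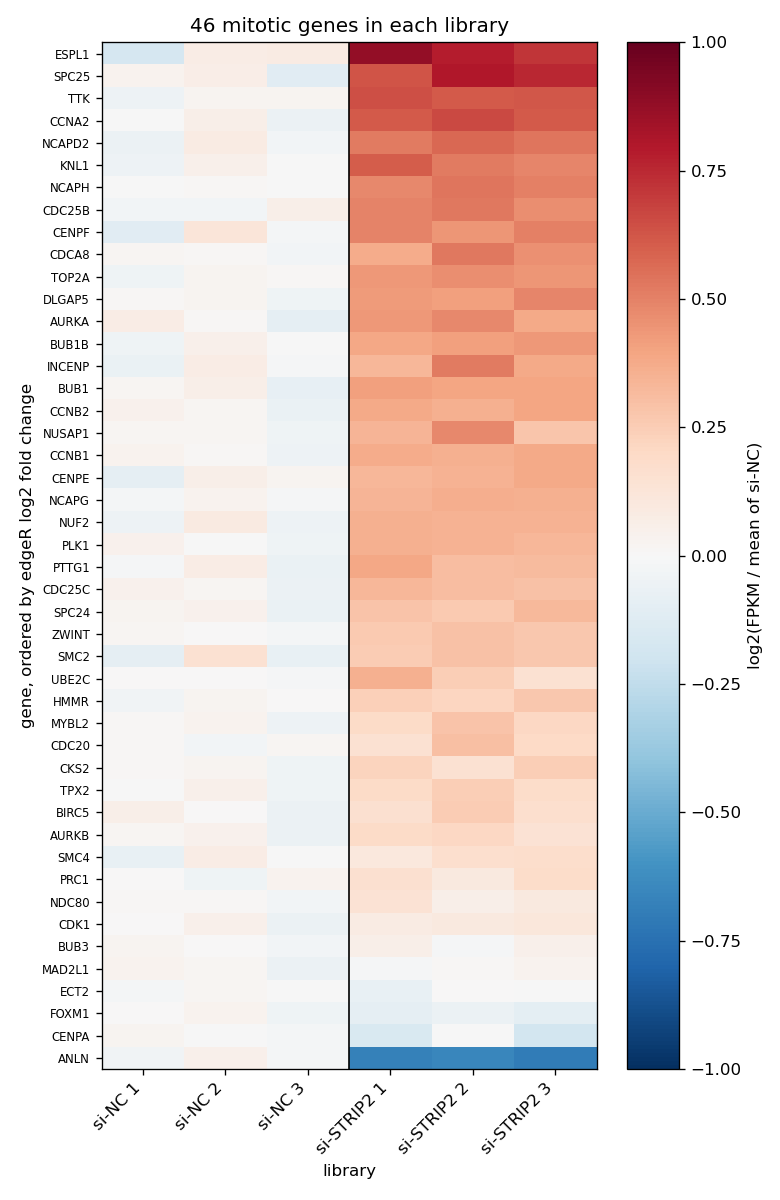
Heat map of log2(FPKM over the mean of si-NC) for the 46 genes (rows, ordered by fold change) in each of the 6 libraries (columns). The 3 si-STRIP2 libraries are alike, with ESPL1 and SPC25 at the top, MAD2L1 and ECT2 near 0 and ANLN at the bottom.

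The 7 genes of the CDK1 engine were all called higher, with log2 fold changes from 0.09 to 0.62. CCNA2, which encodes cyclin A2, the partner of CDK2 in S phase and of CDK1 in G2, had 41.8, 43.5 and 40.0 FPKM in si-NC and 63.7, 65.9 and 63.9 FPKM in si-STRIP2. The groups were far apart, and the log2 fold change was 0.62 (SE 0.041 with edgeR adjusted p = 1.08e-14). CDK1 itself, the catalytic subunit, had 64.7, 66.6 and 61.9 FPKM in si-NC and 68.2, 68.8 and 69.5 FPKM in si-STRIP2. The groups did not overlap, but the log2 fold change was only 0.09 (SE 0.040 with edgeR adjusted p = 0.0457). The call of CDK1 was lost under 9 of 16 alternatives, among them those without si-NC replicate 1 (edgeR adjusted p = 0.0646), without si-NC replicate 3 (0.150), without si-STRIP2 replicate 2 (0.103) and without si-STRIP2 replicate 3 (0.163). Over all alternatives the adjusted p of CDK1 spanned 0.0267 to 1. Ratios of FPKM within a library, here and for the complexes that follow, are descriptions with no test. Cyclin A2 stood at 0.649 ± 0.00419 of the FPKM of CDK1 in si-NC and at 0.937 ± 0.0194 in si-STRIP2 (SD, n = 3), and CCNB1 at 1.43 ± 0.0312 and 1.72 ± 0.0189. The other members of this group were CDC25B (log2 fold change 0.49) and CDC25C (0.30), phosphatases that remove the inhibitory marks from CDK1, CCNB2 (0.37) and CCNB1 (0.36), the B-type cyclins, and CKS2 (0.20), a small subunit that docks phosphorylated substrates and had the highest level of all members (151 ± 4.18 FPKM in si-NC). Genes that overlap CCNA2 and CDC25C on the other strand, EXOSC9 and FAM53C, held 82.3% and 220% as many counts, and whether the counts were split by strand is not given in the sources used here.

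Both kinases that promote entry and spindle assembly were called higher. AURKA, encoding Aurora A, had 28.5, 27.4 and 25.4 FPKM in si-NC and 36.6, 37.9 and 35.2 FPKM in si-STRIP2 (log2 fold change 0.43, SE 0.046 with edgeR adjusted p = 1.28e-09). PLK1, the polo-like kinase of mitotic entry and exit, had 24.2, 23.5 and 22.9 FPKM against 30.1, 29.9 and 29.6 FPKM (log2 fold change 0.34, SE 0.041 with edgeR adjusted p = 1.29e-08). In both, the lowest si-STRIP2 library lay well above the highest si-NC library. TPX2, the spindle protein that activates Aurora A, was called higher too: its log2 fold change was 0.20 (edgeR adjusted p = 8.06e-05), and the ratio of its FPKM to that of AURKA was 4.05 ± 0.189 with si-NC and 3.45 ± 0.0648 with si-STRIP2 (SD, n = 3).

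The chromosomal passenger complex, which corrects faulty kinetochore attachments, was higher in all 4 of its subunits. CDCA8, encoding borealin, had 27.6, 27.4 and 26.8 FPKM in si-NC and 35.2, 39.2 and 37.4 FPKM in si-STRIP2 (log2 fold change 0.45, SE 0.047 with edgeR adjusted p = 7.38e-10). INCENP, the scaffold subunit, had a log2 fold change of 0.41 (edgeR adjusted p = 7.47e-08). The kinase AURKB had 32.8, 33.3 and 31.1 FPKM in si-NC and 37.0, 37.5 and 35.8 FPKM in si-STRIP2, groups that stood apart by a smaller margin (log2 fold change 0.18, SE 0.045 with edgeR adjusted p = 0.00101). BIRC5, encoding survivin, was close to AURKB (0.19, edgeR adjusted p = 0.000240). None of the 4 has an overlapping gene in the deposited table.

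Of the 5 spindle checkpoint genes, 3 were called higher and 2 were not called. TTK, encoding the kinase MPS1 that starts checkpoint signalling, had 16.5, 17.4 and 17.4 FPKM in si-NC and 26.7, 26.1 and 26.3 FPKM in si-STRIP2 (log2 fold change 0.63, SE 0.042 with edgeR adjusted p = 1.62e-14). BUB1 (log2 fold change 0.40) and BUB1B (0.41), which encode the kinase BUB1 and the inhibitor subunit BUBR1, were also called higher, with edgeR adjusted p-values of 5.64e-10 and 1.92e-10. MAD2L1, encoding the MAD2 protein that captures CDC20, had 42.4, 42.2 and 39.9 FPKM in si-NC and 41.1, 41.8 and 42.4 FPKM in si-STRIP2. These ranges overlapped, and MAD2L1 was not called (log2 fold change 0.0068, SE 0.040 with edgeR adjusted p = 0.900). BUB3, the partner of BUB1 and BUBR1, had 56.3, 55.5 and 54.2 FPKM in si-NC and 57.6, 54.9 and 57.2 FPKM in si-STRIP2, which also overlapped (log2 fold change 0.028, SE 0.041 with edgeR adjusted p = 0.575). The FPKM of BUB1B was 0.664 ± 0.0310 of that of MAD2L1 in si-NC against 0.877 ± 0.000966 in si-STRIP2 (SD, n = 3).

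All 4 genes of anaphase and mitotic exit were called higher. ESPL1, encoding separase, the protease that cuts cohesin, had the highest fold change of the members. Its FPKM was 4.19, 4.96 and 4.98 in si-NC and 8.64, 8.11 and 7.71 in si-STRIP2 (log2 fold change 0.80, SE 0.056 with edgeR adjusted p = 4.47e-14). PTTG1, encoding securin, which holds separase inactive, had a much higher level and a smaller change (52.9 ± 2.54 FPKM in si-NC and 67.0 ± 1.92 FPKM in si-STRIP2, SD, n = 3, log2 fold change 0.34, edgeR adjusted p = 3.10e-08). Its near copies PTTG2 and PTTG3P held 0.0154% and 0.00772% as many counts. CDC20, the activator of the anaphase-promoting complex that the checkpoint restrains, had 88.3, 85.8 and 88.7 FPKM in si-NC and 97.1, 108 and 101 FPKM in si-STRIP2, the smallest change of the 4 (log2 fold change 0.21, SE 0.043 with edgeR adjusted p = 7.48e-05). UBE2C, the ubiquitin-conjugating enzyme of the same complex, had 82.5, 76.5 and 71.8 FPKM in si-STRIP2, all above the 64.6, 64.8 and 64.1 FPKM of si-NC (log2 fold change 0.25, edgeR adjusted p = 1.75e-05).

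Of the 9 kinetochore genes, 7 were called higher and 2 were not called. SPC25, a subunit of the NDC80 complex that grips microtubules, had 15.4, 15.7 and 13.9 FPKM in si-NC and 23.2, 26.1 and 25.2 FPKM in si-STRIP2 (log2 fold change 0.72, SE 0.063 with edgeR adjusted p = 8.47e-12). The other subunits of this 4-protein complex had log2 fold changes of 0.35 (NUF2, edgeR adjusted p = 7.05e-08), 0.28 (SPC24, 0.00199) and 0.10 (NDC80). NDC80 had 26.3, 26.2 and 25.6 FPKM in si-NC and 28.8, 27.1 and 27.9 FPKM in si-STRIP2, which did not overlap, yet it was not called (SE 0.043 with edgeR adjusted p = 0.0515). It was called higher under 5 alternatives, one of them without si-STRIP2 replicate 2 (edgeR adjusted p = 0.0449), with adjusted p-values of 0.0360 to 1 over all 16 alternatives. The ratio of SPC25 to NDC80 was 0.575 ± 0.0298 in si-NC against 0.891 ± 0.0794 in si-STRIP2 (SD, n = 3). NOSTRIN, which overlaps SPC25 on the other strand, held 26.3% as many counts.

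Among the other kinetochore genes, KNL1, the scaffold that recruits the BUB proteins, had a log2 fold change of 0.54 (edgeR adjusted p = 9.76e-13) and its partner ZWINT one of 0.27 (1.26e-06). The outer kinetochore protein CENPF (0.48) and the motor CENPE (0.35) were also called higher, with edgeR adjusted p-values of 4.80e-11 and 1.85e-08. CENPA, the histone H3 variant that marks the centromere, was not called. It had 16.8, 16.5 and 16.3 FPKM in si-NC and 14.9, 16.5 and 14.5 FPKM in si-STRIP2, where the second si-STRIP2 library reached the si-NC range (log2 fold change -0.12, SE 0.064 with edgeR adjusted p = 0.130). Without si-STRIP2 replicate 2 it was called lower (log2 fold change -0.17, edgeR adjusted p = 0.0430), with adjusted p-values of 0.0430 to 1 over the alternatives. SLC35F6, which overlaps CENPA on the same strand, held 184% as many counts.

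The condensin I subunits and topoisomerase II were all called higher, by unequal amounts. NCAPD2, one of the HEAT-repeat subunits, had 31.0, 34.0 and 31.5 FPKM in si-NC and 46.2, 48.0 and 46.6 FPKM in si-STRIP2 (log2 fold change 0.54, SE 0.041 with edgeR adjusted p = 2.36e-13). NCAPH, the kleisin that closes the ring, had a log2 fold change of 0.50 (edgeR adjusted p = 3.43e-12) and NCAPG, the other HEAT-repeat subunit, one of 0.35 (2.16e-09). The ATPase subunits, which condensin I shares with condensin II, had the smaller log2 fold changes. SMC4 had 29.1, 32.3 and 30.6 FPKM in si-NC and 32.9, 34.4 and 34.6 FPKM in si-STRIP2, groups that only just stood apart (log2 fold change 0.15, SE 0.041 with edgeR adjusted p = 0.00332). SMC2 had a log2 fold change of 0.27 (edgeR adjusted p = 3.13e-05). Relative to SMC4, the FPKM of NCAPD2 went from 1.05 ± 0.0176 to 1.38 ± 0.0299 and that of NCAPH from 0.400 ± 0.0187 to 0.513 ± 0.00959, while SMC2 went from 0.314 ± 0.0165 to 0.342 ± 0.00662 (SD, n = 3). TOP2A, which untangles sister chromatids, had a log2 fold change of 0.44 (edgeR adjusted p = 1.39e-11). Of the exonic bases of NCAPG and SMC4, 33.1% and 25.6% are shared with other genes in GENCODE 29, mainly LCORL and TRIM59.

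Of the 7 spindle and cytokinesis genes, 4 were called higher, 1 lower and 2 were not called. ANLN, encoding anillin, the actin-binding scaffold of the cleavage furrow, had 34.5, 36.7 and 34.99 FPKM in si-NC and 22.1, 22.5 and 21.8 FPKM in si-STRIP2. The groups were far apart, with 62.5% of the control level left (log2 fold change -0.68, SE 0.040 with edgeR adjusted p = 4.99e-16). ANLN (ENSG00000011426, chromosome 7, 36389821 to 36453791, plus strand) was called lower under all 16 alternatives run, with log2 fold changes from -0.69 to -0.65, and the overlapping gene KIAA0895 held 13.9% as many counts. ECT2, the exchange factor that activates RhoA at the same furrow, had 48.7, 50.1 and 49.4 FPKM in si-NC and 46.9, 49.6 and 49.4 FPKM in si-STRIP2, which overlapped (log2 fold change -0.026, SE 0.040 with edgeR adjusted p = 0.598). The ratio of ANLN to ECT2 was 0.716 ± 0.0133 in si-NC against 0.455 ± 0.0156 in si-STRIP2 (SD, n = 3).

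On the spindle side, DLGAP5, which stabilises kinetochore fibres, had 40.1, 40.6 and 38.6 FPKM in si-NC and 53.3, 52.9 and 55.7 FPKM in si-STRIP2 (log2 fold change 0.44, SE 0.041 with edgeR adjusted p = 4.54e-11). HMMR, a microtubule-associated receptor for hyaluronan, was called higher by 0.24 (edgeR adjusted p = 5.98e-06). PRC1, which bundles microtubules of the central spindle, had 5.07, 4.93 and 5.20 FPKM in si-NC and 5.65, 5.41 and 5.75 FPKM in si-STRIP2, separate groups of small difference that were not called (log2 fold change 0.14, SE 0.064 with edgeR adjusted p = 0.0604). NUSAP1, a microtubule-stabilising protein, had the lowest level of the members, at 1.75, 1.75 and 1.68 FPKM in si-NC and 2.18, 2.41 and 2.09 FPKM in si-STRIP2 (log2 fold change 0.37, SE 0.12 with edgeR adjusted p = 0.00911). Its call was lost without si-STRIP2 replicate 2 (log2 fold change 0.31, edgeR adjusted p = 0.0517), with adjusted p-values of 0.00886 to 0.214 over the alternatives. The levels of NUSAP1 and PRC1 are uncertain, since 62.2% and 58.4% of their exonic bases are shared with another gene in GENCODE 29, and how the deposited counts treat shared bases is not given in the sources used here.

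Of the transcription factors of the mitotic wave, MYBL2 was called higher and FOXM1 was not called. FOXM1 had 21.3, 21.8 and 20.6 FPKM in si-NC and 19.9, 20.3 and 19.8 FPKM in si-STRIP2, every si-STRIP2 library being slightly below every si-NC library (log2 fold change -0.087, SE 0.042 with edgeR adjusted p = 0.0775). It was called lower under 3 alternatives, one of them without si-NC replicate 3 (log2 fold change -0.11, edgeR adjusted p = 0.0293), with adjusted p-values of 0.0141 to 1 over the alternatives. RHNO1, which overlaps FOXM1 on the other strand, held 51.3% as many counts. MYBL2, encoding B-MYB, had 38.1, 38.6 and 36.4 FPKM in si-NC and 43.0, 45.9 and 43.5 FPKM in si-STRIP2, which stood apart (log2 fold change 0.22, SE 0.043 with edgeR adjusted p = 4.34e-05).

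**Figure D3:**
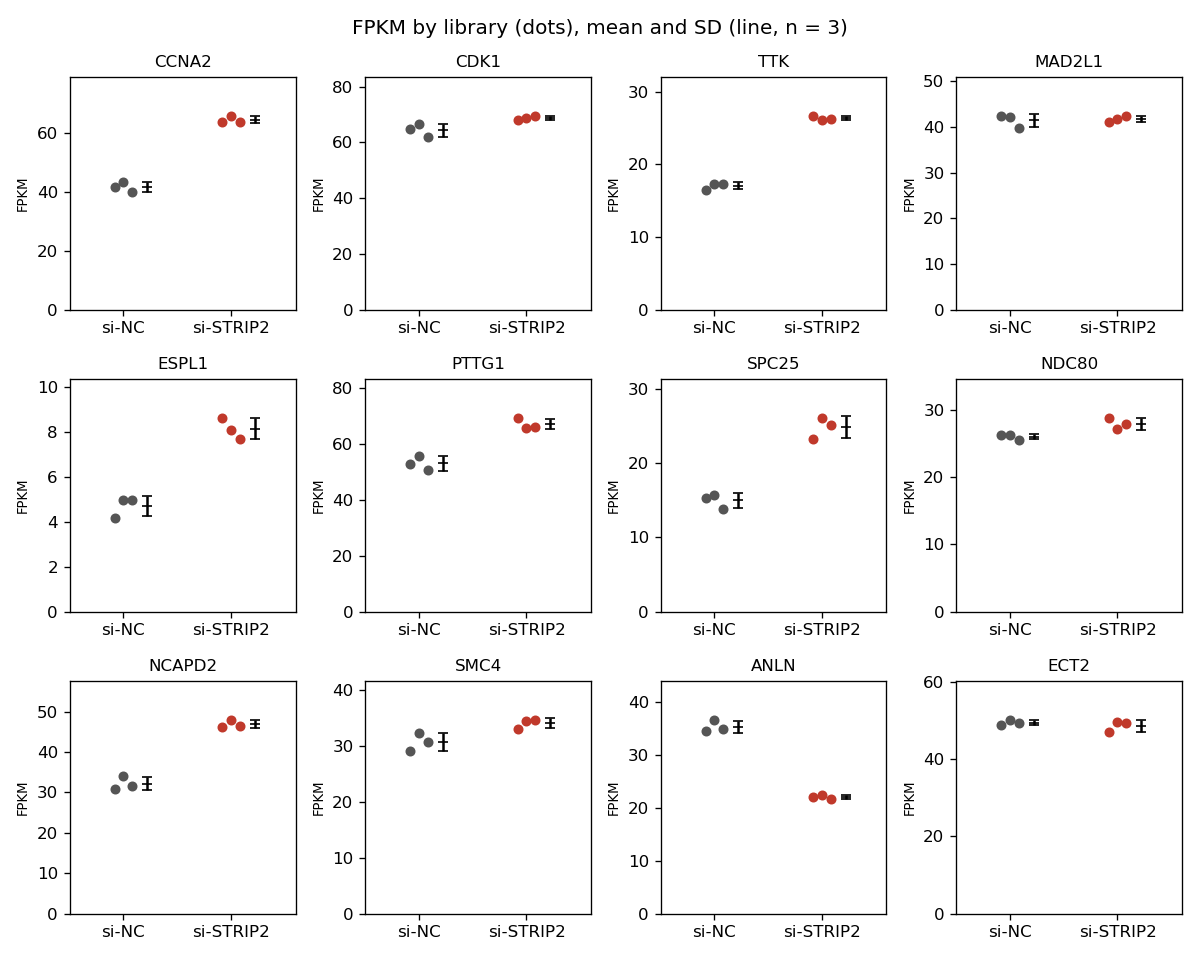
FPKM (vertical axes, from 0) of 12 of the genes in each library (dots), with the mean and SD of each group (n = 3). CCNA2, TTK, ESPL1, SPC25 and NCAPD2 are higher in si-STRIP2, the groups lie close together for CDK1, NDC80 and SMC4 and overlap for MAD2L1 and ECT2, and ANLN is lower.

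Overlapping genes were counted for every member, as the labels do not state strand use. No other gene of the deposited table overlaps 23 members. Of these 23, 21 were called higher and the other 2, BUB3 and MAD2L1, were not called. Of all genes tested, whether overlapped or not, 27.8% were called higher and 27.0% lower. These shares were not taken apart by overlap. For 13 members the overlapping genes held over 10% as many counts, and 9 of these were called higher and 1, ANLN, lower. Beside the shares given with the genes above, they came to 53.5% for SMC4, 31.1% for NCAPD2, 16.4% for NUF2 and 189% for NUSAP1, where OIP5 on the other strand held most. The members lie on 18 chromosomes, with at most 5 on any 1 (chromosomes 15 and 20).

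Other genes of mitosis and its control were taken from 7 lists that hold none of the members. Of these 124 genes, all tested, 62 were called higher and 31 lower, with a median log2 fold change of 0.13. Over all genes tested, 27.8% were called higher and 27.0% lower. Of 30 further kinetochore and centromere genes, 17 were called higher and 5 lower, led by CENPI (log2 fold change 0.66) and DSN1 (0.63), of the inner kinetochore network and the MIS12 complex, and by CENPL (-0.49) and CENPN (-0.44), which bind each other at the centromere. Of 20 spindle assembly genes, 11 were called higher and 3 lower, with KIFC1, a minus-end motor, at 0.70 and TACC3, a clathrin-associated spindle protein, at 0.63. Of the 6 condensin II and chromosome genes, 4 were called higher and 2 lower: the condensin II subunits NCAPD3 (0.57) and NCAPH2 (0.49) were up, while KIF4A (-0.44), the chromosome-arm motor, and NCAPG2 (-0.10) were down. The edgeR adjusted p-values of these named genes were at most 0.0292, that of NCAPG2. Genes that overlap CENPL held 179% as many counts and those that overlap CENPN 46.1%.

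Genes of the anaphase-promoting complex and of cohesin were called in both directions, as were 27.8% (higher) and 27.0% (lower) of all genes tested. Of 17 genes of the anaphase-promoting complex and its cofactors, 9 were called higher and 5 lower. ANAPC2 (0.45) and ANAPC7 (0.42) were in front, with ANAPC16 (-0.59) and ANAPC13 (-0.47) at the other end. Genes that overlap ANAPC16 held 38.8% as many counts and those that overlap ANAPC13 27.5%. Of 15 cohesin genes, 8 were called higher and 6 lower, among them ESCO2 (0.52), SMC1A (0.46), STAG1 (-0.59) and PDS5A (-0.33), although genes that overlap ESCO2 held 474% as many counts and those that overlap STAG1 49.98%. Of 18 genes of entry and checkpoint control, 9 were called higher and 4 lower. TRIP13 (0.64), the ATPase that remodels MAD2, and CDC25A (0.58), the third CDC25 phosphatase, were higher, and BORA (-0.74), the cofactor through which Aurora A activates PLK1, and MAD2L1BP (-0.39), the adaptor of TRIP13, were lower. The edgeR adjusted p-values of these named genes were at most 0.000122. The value of BORA is uncertain, since overlapping genes held 321% as many counts and share 37.0% of its exonic bases.

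Of 18 regulators upstream of the mitotic promoters, 4 were called higher and 6 lower, with a median log2 fold change of -0.056, beside 27.8% and 27.0% of all genes tested. CDKN1A, encoding the CDK inhibitor p21, had 44.2, 42.7 and 42.9 FPKM in si-NC and 29.3, 29.6 and 26.3 FPKM in si-STRIP2 (log2 fold change -0.61, SE 0.045 with edgeR adjusted p = 1.29e-13). The other called genes with the largest changes were LIN37, a MuvB subunit (0.62, edgeR adjusted p = 0.00350), TFDP1 (0.32, 2.09e-08) and TFDP2 (-0.41, 4.37e-09), the partners of the E2F factors. LIN37 was low and reached 1 FPKM as a mean in si-STRIP2 only, at 0.987 ± 0.160 FPKM in si-NC against 1.52 ± 0.289 FPKM in si-STRIP2 (SD, n = 3), with 53.97% of its exonic bases shared with another gene. For comparison, 29 of 32 genes that act at G1/S and in DNA replication were called higher and 2 lower, with a median log2 fold change of 0.48 and a highest value of 1.51 (MCM5), and 11 of them were called higher by at least 1.5-fold, against 4 of the 46 mitotic genes. The difference between the lists was not tested.

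**Figure D4:**
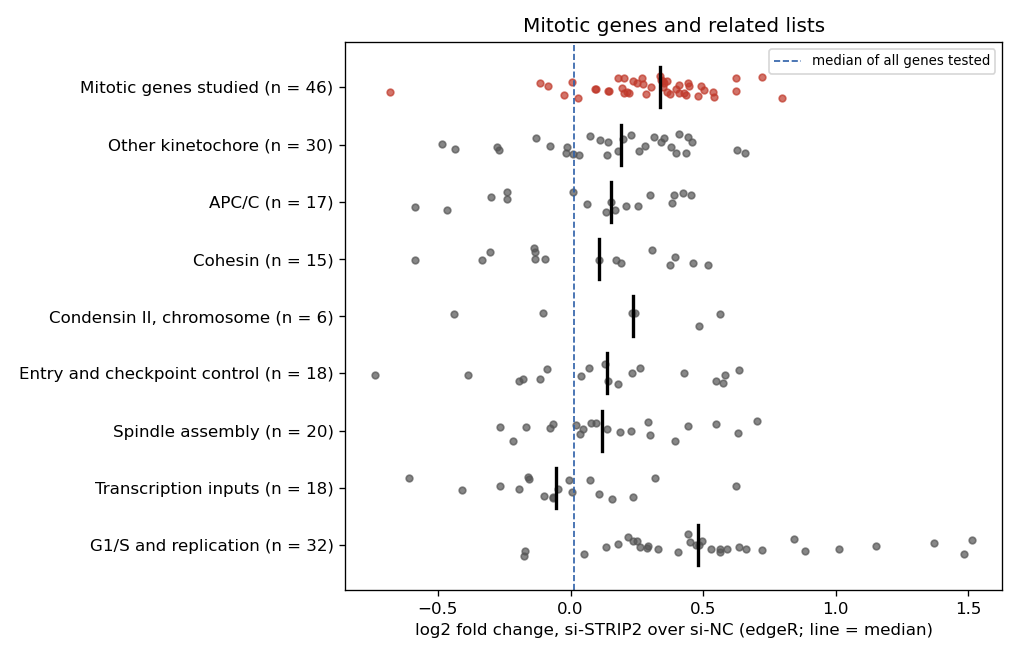
Log2 fold changes (horizontal axis, si-STRIP2 over si-NC, edgeR) of the genes studied and of 8 related lists, 1 dot a gene, with the median of each list as a black line and that of all genes tested as a dashed line. The mitotic genes centre on 0.34, the transcription inputs on -0.056, the other mitotic lists between 0.11 and 0.24, and the G1/S and replication genes centre on 0.48.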

How the data were processed

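The authors deposited 1 table with whole-number counts and FPKM values per Ensembl gene and library, per the file headers. The submitters' processing notes name bcl2fastq 2.20.0.422, FastQC 0.10.1, cutadapt 1.9.1, HISAT2 2.2.1, HTSeq 0.6.1 and GRCh38.p13, with no roles. The annotation release and the strand setting are not given in the sources used here. The deposited FPKM values equal the counts divided by exonic size and library total within 0.005. Gene positions are those of the deposited table. The deposited exonic sizes in bases were used for this check and for length.

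Counts were tested in R 4.3.3 with edgeR 4.0.16: filterByExpr (minimum count 10), TMM scaling, a quasi-likelihood fit with group as the only term, a 2-sided F test, and Benjamini-Hochberg adjustment over 15687 genes, which hold 99.8% of all counts. A standard error is the size of a log2 fold change over the root of its F value. The script was tested on simulated data. DESeq2 1.42.0 and limma 3.58.1 served as alternatives. Same-numbered libraries of the 2 groups did not deviate together (correlations of -0.086, -0.013 and -0.072), so numbers were not taken as pairs. Sequences and promoter positions are from RefSeq (GRCh38.p14), and shared exonic bases from GENCODE 29.

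The members and lists were chosen with earlier results of these data known, so no list was tested. All members are named. Values by library are given for the largest and smallest fold change in each role, for members not called or against their group, and for both transcription factors. UBE2C and NUSAP1 were added after their values were seen. In each other list, up to 2 called rises and 2 called falls with a mean of 1 FPKM or more in the higher group were eligible.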

Additional observations from a re-analysis of the deposited data

How the results depend on the processing

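Of the 46 members, 25 kept their direction and their side of the threshold under every alternative in which they were tested (16 at most), and 22 were called higher under all of them. Members called higher numbered 37 to 39 under 15 of the 16 alternatives, and 37 with the replicate block. Without each library in turn they numbered 37 to 38, members called lower 1 to 2 (2 without si-NC replicate 3, which added FOXM1, or without si-STRIP2 replicate 2, which added CENPA), and the median log2 fold change of the members ranged from 0.311 to 0.349. In the same fits the genes called over all genes tested ranged from 3866 to 4244 higher and from 3824 to 4250 lower, those in the other mitotic lists from 57 to 61 higher and from 26 to 34 lower, the G1/S genes called higher from 26 to 29, and STRIP2 from -0.54 to -0.41. The block ended the call of CDK1 (edgeR adjusted p = 0.0880).

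Against a 1.2-fold change, which by construction calls fewer genes, 22 members, 29 genes of the other mitotic lists and 1780 genes in all were called higher, and 9 and 1943 lower in the last 2. With the filter of 5 FPKM in 3 libraries, 6955 genes were tested, 2462 were called higher and 2540 lower, and 2 members were called lower. Upper-quartile scaling also gave 2 members called lower. The member added by both was FOXM1, and the cause was not tested. Limma on log2(FPKM + 1) gave a median of 0.304 for the members, as the pseudocount shrinks fold changes. MAD2L1, not called, had values below 0 under DESeq2 (-4.1e-05), with the 5 FPKM filter (-0.0070), and when si-NC replicate 3 (-0.023) or si-STRIP2 replicate 3 (-0.0097) was left out, within a leave-one-out range of -0.023 to 0.028. ECT2, not called, ranged from -0.043 to 0.0082 without each library, the last without si-STRIP2 replicate 1. The median of all genes tested stayed between 0.005 and 0.046. A CHR word was found in 29 promoters in the window of 100 bases before to 50 after the start, and in 27 with TTTGAA alone. NUSAP1 had the lowest counts of the members, from 104 to 152 a library, and the cause was not tested.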

Other observations

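The fall of ANLN was set beside other genes of the cleavage furrow and midbody, chosen after their values were seen. CEP55, which organises the final cut of the midbody, had 49.3, 49.5 and 46.9 FPKM in si-NC and 38.9, 41.0 and 41.5 FPKM in si-STRIP2, which did not overlap (log2 fold change -0.27, SE 0.042 with edgeR adjusted p = 1.93e-06). KIF4A, which also acts at the central spindle, had 17.3, 18.1 and 17.03 FPKM in si-NC and 12.3, 14.0 and 12.4 FPKM in si-STRIP2 (log2 fold change -0.44, SE 0.050 with edgeR adjusted p = 3.11e-09). CIT, the citron kinase of the midbody, was higher (log2 fold change 0.26, edgeR adjusted p = 5.19e-05), and RACGAP1, the partner of ECT2, was not called (0.037, edgeR adjusted p = 0.453).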
